A study of Mus musculus with 29 samples.

Results

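Peritoneal tissue taken 3 weeks after tumor implantation from mice under dual immune checkpoint blockade was compared with tissue from dual-treated mice that had cleared the tumor by day 35. The comparison held 8 of the 29 libraries of the series: all 5 libraries of anti-PD-1 plus anti-CTLA-4 treatment at day 21, and the 3 dual-treated day 35 libraries numbered 2, 3 and 4. Of 24421 genes in the table, 15565 had enough counts to be tested. The labels do not state cure. Day 35 libraries 2, 3 and 4 were taken as cured, and libraries 1 and 5 as uncured, by matching title numbers to mouse numbers. The sequencing depth was 29113101 to 31219650 counts per library at day 21 and 27999482 to 28489995 in the cured group.

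All animals were young female C57BL/6J mice, a strain with a normal immune system, and all received intraperitoneal YTN16 cells, a mouse gastric cancer line, so that 1 tumor line stood behind every library. The dual ICI mice received repeated intraperitoneal injections of both antibodies, and the day 35 mice received further injections after the early ones. Untreated mice received PBS, and 5 of their libraries exist for each day. RNA came from the stripped peritoneum, with or without nodules, and every library is labelled as tumor tissue.

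PD-1 and CTLA-4 are inhibitory receptors of T cells, and antibodies that block them release T cell activity against tumor cells. Activated CD8 T cells and NK cells secrete interferon gamma, which signals through JAK kinases to genes for chemokines, guanylate-binding proteins and antigen presentation. After an antigen is cleared, most effector T cells are lost and inflamed tissue returns to its resident cell types. In bulk tissue, fewer cells of a type and less RNA per cell cannot be told apart.

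The day 21 and the day 35 libraries belong to separate library number series. Time, library series and the later injections therefore cannot be told apart from clearance in the direct comparison. Because each day had its own untreated libraries, the difference of differences (dual day 21 minus cured, set against untreated day 21 minus untreated day 35) was tested as well; what both arms share on the log2 scale cancels there. Untreated mice carried tumor on both days, so that contrast does not remove the loss of tumor. The cured libraries were also picked by outcome, whereas the day 21 mice were other animals whose later outcome was unknown. Neither the direct comparison nor the difference of differences removes that choice. Untreated day 35 library 2 stood apart, with 0.124% of counts in gastric epithelium genes against 0.453% to 0.502% in the other 4. Leaving it out raised the number of called genes in that contrast from 6275 to 8205, and all 17 differences of differences that passed among 25 genes tested still did.

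Genes of gastric epithelium were higher at day 21. The list mixes gastric with general epithelial genes, and Krt19 is also a mesothelial marker, so its share does not measure tumor alone. Its members took 0.107%, 0.110%, 0.235%, 0.443% and 0.286% of all counts in day 21 libraries 1 to 5, and 0.0161%, 0.0107% and 0.0101% in cured libraries 2, 3 and 4. Every day 21 library lay above every cured one, with a ratio of means of 19.2 (exact permutation test, two-sided, p = 0.0357, the smallest that 5 against 3 allows; adjusted 0.0422 over 39 lists). Of those 39 lists, 33 reached this smallest p, so it does not set a list apart. The uncured libraries held 0.554% and 0.675%. Of the 30 markers, Gkn1, Gkn2, Tff1 and Muc5ac, which stomach mucosa secretes, were at 0 counts in all 3 cured libraries, but they had only 3 to 15 counts over the 5 day 21 libraries and were too low to test.

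**Figure D1:**
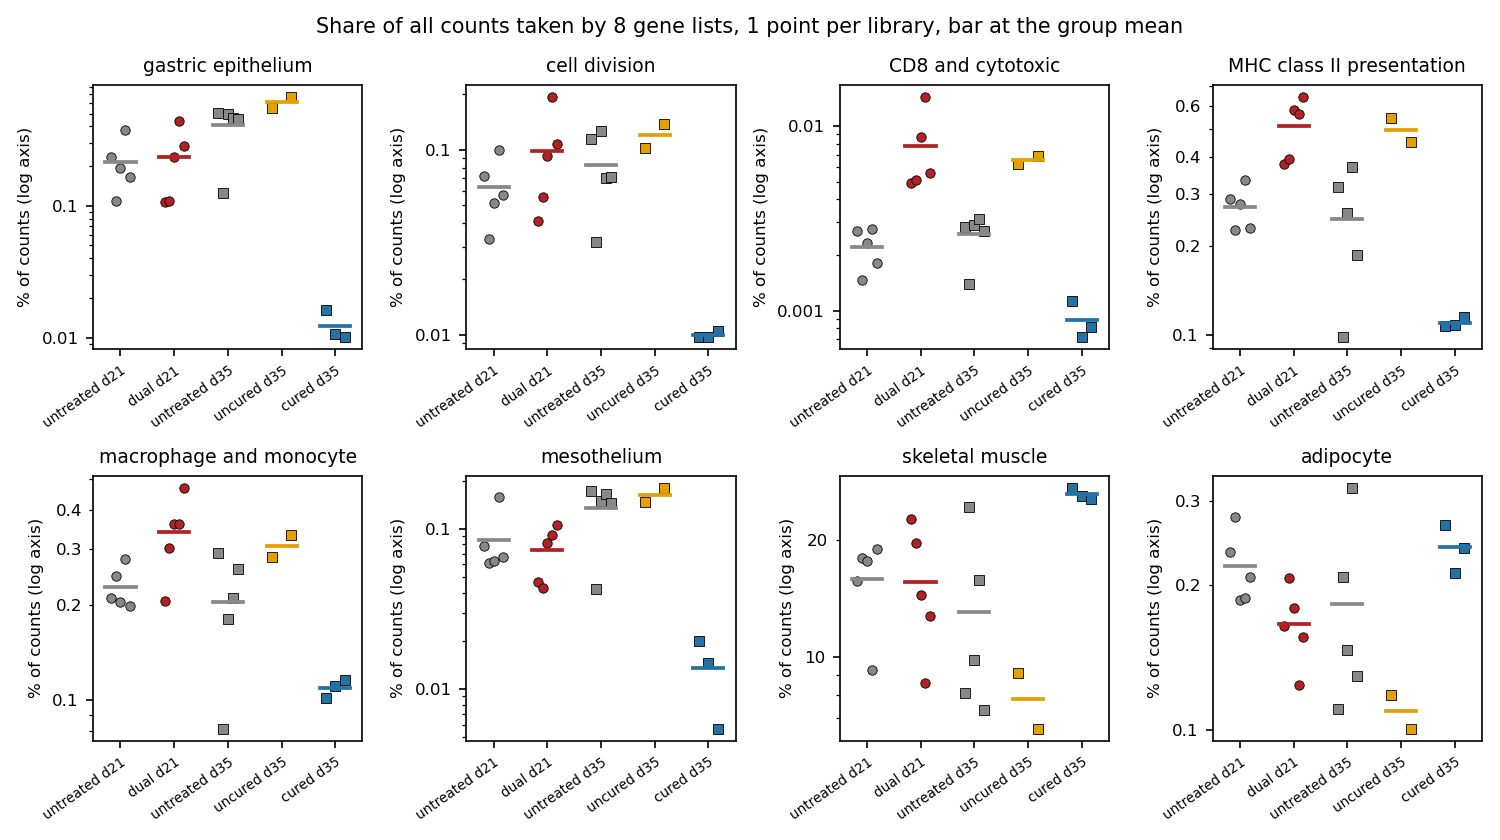
Share of all counts (percent, log axis) taken by 8 gene lists in 5 groups of libraries, with 1 point per library and a bar at the group mean. The cured libraries lie lowest for gastric epithelium (0.0101% to 0.0161%) and hold 25.6% to 27.2% of counts in skeletal muscle genes.

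Skeletal muscle genes ran the other way. They took 22.7%, 19.7%, 14.5%, 8.59% and 12.8% of counts at day 21 and 27.2%, 26.0% and 25.6% in the cured libraries, without overlap (ratio 0.596, exact permutation p = 0.0357). Day 21 libraries 1 and 2 held the least gastric marker RNA and the most muscle RNA, and library 4 held the most gastric and the least muscle RNA. The uncured libraries held 9.11% and 6.56%. Both shares moved with the groups, and their part in the other gene lists was not tested.

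Across all genes, 6069 of 15565 (39.0%) differed at an adjusted p under 0.05, 3773 (24.2%) higher at day 21 and 2296 (14.8%) lower, by edgeR's quasi-likelihood test with Benjamini-Hochberg adjustment. Of these, 2556 were higher and 590 lower by over 2-fold. The split depended on scaling: with total counts in place of the trimmed mean scaling the median of all genes moved up by 0.487 on the log2 scale, and 93.9% rather than 62.2% of 6899 called genes were higher. Fold changes are log2 values, day 21 over cured, each with its standard error (SE), and levels are CPM, read counts scaled by library size. The number of calls rested on each cured library, and fell to 2978, 2690 and 2600 without library 2, 3 or 4. It fell to 3753 without day 21 library 3 and to 3839 without library 5. The day 21 mice were also more variable among themselves, with a median SD of log2 CPM of 0.285 (n = 5) against 0.131 (n = 3). CPM values of day 21 and cured libraries did not overlap for 7754 of the 15565 genes (49.8%). A lack of overlap therefore does not by itself set a gene apart. Counts of list members given below stand beside 24.2% of all genes higher and 14.8% lower. Those given with total counts stand beside 6478 of 15565 genes higher and 421 lower under that scaling.

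**Figure D2:**
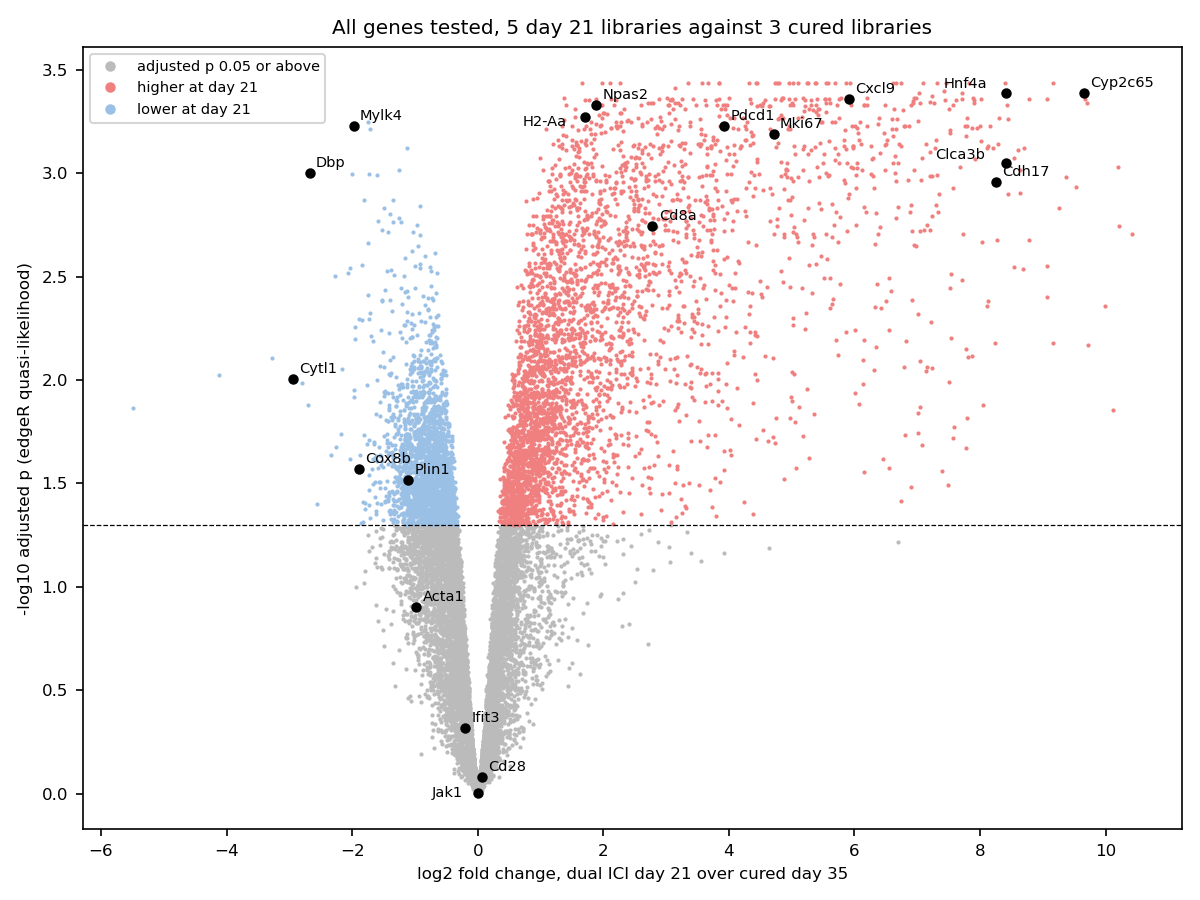
Each point is 1 of 15565 genes, with the log2 fold change of dual ICI day 21 over cured day 35 on the x axis and -log10 of the adjusted p on the y axis; the dashed line marks 0.05. Hnf4a (8.41) and Cxcl9 (5.91) lie far to the right, Dbp (-2.68) to the left, and Jak1 (0.00) and Cd28 (0.07) at the center.

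Of 25 tested gastric epithelium genes, 21 were higher at day 21 and 1 was lower, with a median log2 fold change of 4.88 against 0.02 over all genes. Muc6, Lgals4 and Tspan8 were not called. Hnf4a (chr2:163506808-163572910, GRCm38), a transcription factor of gut epithelium, had 26.2, 25.7, 43.2, 84.8 and 53.8 CPM at day 21 and 0.361, 0 and 0.0488 CPM in the cured libraries. Its log2 fold change was 8.41 (SE 0.79, adjusted p = 0.000407), and the groups did not overlap. Cldn18, a tight junction protein of the stomach, differed by 7.50 (SE 0.84, adjusted p = 0.000488). Cyp2c65, a cytochrome P450 of the gut, had 10.1 to 33.2 CPM at day 21 and a single count over all cured libraries, a ratio of 1099 with a 95% counting interval of 197 to 43430.

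Other epithelial genes showed the same direction. Cdh17, a cadherin of intestinal epithelium, ranged from 56.4 to 333.5 CPM at day 21 and was at 1.39, 0 and 0 CPM in the cured libraries. Muc1, an epithelial mucin, was higher by 3.22 (SE 0.48, adjusted p = 0.00134). Gkn3 went against its list at -1.05 (SE 0.35, adjusted p = 0.0400), with 0.447 to 1.22 CPM at day 21 and 1.62 to 2.47 CPM in cured tissue. That call was lost without any 1 of the cured libraries (adjusted p 0.0764 to 0.152), without day 21 library 3, 4 or 5 (0.0536 to 0.0678) and with total counts (0.244).

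All 23 tested cell division genes were higher at day 21, with a median of 4.28. Mki67, a marker of cycling cells, was at 32.6, 44.9, 76.9, 164.2 and 93.6 CPM at day 21 and at 2.52, 3.74 and 3.17 CPM in cured tissue. The log2 fold change was 4.72 (SE 0.58, adjusted p = 0.000649). Top2a, the topoisomerase that untangles replicated DNA, rose by 5.35 (SE 0.60), and Cdk1, the kinase that starts mitosis, by 4.85 (SE 0.47). All 23 were also higher in the difference of differences, where 38.6% of 16239 genes were called, and none of the 23 differed between dual ICI and untreated tissue within day 21, where 0.574% of 15503 genes were called.

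T cell genes were higher at day 21 than in cured tissue. Of 17 tested, 15 were higher and none was lower (median 2.28), and of 15 CD8 and cytotoxic genes 13 were higher (median 2.83). Cd8a and Cd8b1, the chains of the CD8 co-receptor, lie side by side on chromosome 6 (chr6:71373427-71379173 and chr6:71322788-71337494). Cd8a had 10.4, 10.7, 16.0, 23.3 and 8.39 CPM at day 21 and 3.09, 1.18 and 1.76 CPM in the cured libraries. All day 21 values were above all cured values, and the log2 fold change was 2.78 (SE 0.45, adjusted p = 0.00179). For Cd8b1 it was 2.88 (SE 0.45, adjusted p = 0.00166).

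Within day 21, 89 genes differed between dual ICI and untreated tissue, and both CD8 genes were among them. Cd8a was higher under dual ICI by 2.31 (adjusted p = 0.0192, 5 against 5 libraries) and Cd8b1 by 2.53 (adjusted p = 0.0222). Between cured and untreated tissue at day 35, where 44.7% of 15816 genes were called, the Cd8a difference was -0.68 and did not pass (adjusted p = 0.154). Untreated tissue held 2.79 ± 1.11 CPM (SD, n = 5) of Cd8a at day 21 and 3.24 ± 1.00 CPM (SD, n = 5) at day 35. The difference of differences for Cd8a was 2.98 (adjusted p = 0.000588).

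Several genes of T cell effector function were higher at day 21, while Fasl and Tbx21 of the CD8 and cytotoxic list were not called. With total counts all 15 of that list were higher. Gzmb, granzyme B of killer cell granules, had 1.82, 1.75, 1.85, 4.20 and 1.49 CPM at day 21 and 0.515, 0.443 and 0.293 CPM in the cured libraries (log2 fold change 2.41, SE 0.47, adjusted p = 0.00466). Prf1, the pore-forming perforin, was higher by 2.84 (SE 0.42, adjusted p = 0.00129). Ifng, interferon gamma itself, had 191 counts over the day 21 libraries and 1 count over the cured ones, a ratio of 76.6 with a counting interval of 13.6 to 3041. Eomes, a transcription factor of effector and exhausted CD8 T cells, had 434 and 3 counts, a ratio of 58.0 (19.7 to 282.4). Intervals cover counting error only. Between dual ICI and untreated tissue within day 21, Gzmb (1.71, adjusted p = 0.0761) and Ifng (2.20, adjusted p = 0.0539) did not pass. Of the 15 CD8 and cytotoxic genes, 6 did pass there, where 0.574% of all genes were called.

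Among CD4 and regulatory T cell genes, 4 of 9 were higher (7 with total counts) and none was lower. Cd4 was higher by 2.23 (SE 0.27, adjusted p = 0.000592). Foxp3, the factor that defines regulatory T cells, had 0.949, 1.34, 2.68, 2.38 and 2.73 CPM at day 21 and 0.103, 0.443 and 0.537 CPM in cured tissue, a difference of 2.47 (SE 0.56, adjusted p = 0.00935). The uncured libraries had 5.22 and 5.23 CPM of Foxp3, above every library compared here.

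Checkpoint receptors and ligands were higher for 12 of 15 genes, with a median of 1.70 and none lower. Between dual ICI and untreated tissue within day 21, none of the 15 was called, where 0.574% of all genes were. Pdcd1, which encodes PD-1, had 3.88, 1.68, 4.33, 4.79 and 4.58 CPM at day 21 and 0.309, 0.148 and 0.293 CPM in the cured libraries. The lowest day 21 value, in library 2, was still above the cured values, and the log2 fold change was 3.93 (SE 0.47, adjusted p = 0.000593). Ctla4 differed by 2.64 (SE 0.52, adjusted p = 0.00504) and Lag3, a receptor that binds MHC class II, by 1.37 (SE 0.23, adjusted p = 0.00209).

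Havcr2, which encodes TIM-3, was higher by 3.52 (SE 0.50) and its ligand gene Lgals9 by 1.73 (SE 0.28). Tigit was higher by 3.53 (SE 0.58) and Tnfrsf14, the ligand of BTLA, by 1.70 (SE 0.27). Btla was higher by 1.93 (SE 0.46, adjusted p = 0.0119), a call lost without cured library 2 (0.0551) or 4 (0.0524). Cd28, the co-stimulatory receptor that competes with CTLA-4 for the same ligands, did not differ beyond the spread. It had 6.73, 5.62, 9.29, 7.01 and 4.86 CPM at day 21 and 5.41, 6.64 and 7.12 CPM in cured tissue (0.07, SE 0.24, adjusted p = 0.832). Against untreated tissue Cd28 went the other way from Cd8a, with a difference of differences of -1.48 (adjusted p = 0.0152) that did not pass with total counts (0.0728) or in a fit of all 29 libraries (0.0814).

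**Figure D3:**
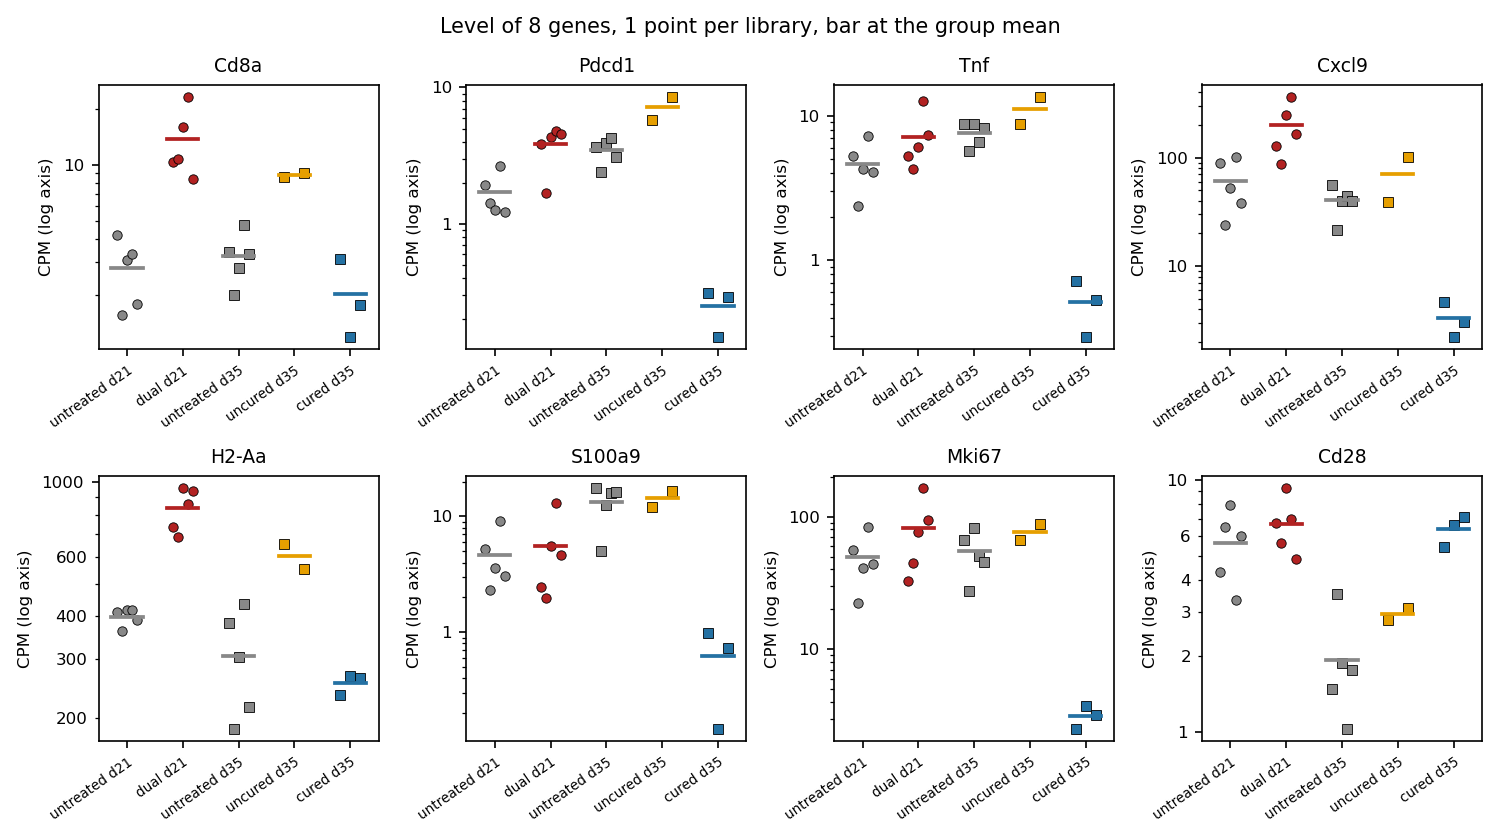
Level of 8 genes in CPM (log axis) in 5 groups of libraries, with 1 point per library and a bar at the group mean. Cured libraries lie below all day 21 dual ICI libraries for 7 of the 8 genes and overlap them for Cd28. Over all tested genes, 49.8% did not overlap between dual ICI day 21 and cured libraries, in either direction.

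Interferon gamma targets were higher as a whole: 21 of 21 tested genes were called, with a median of 2.31. Cxcl9, a chemokine that draws CXCR3-bearing T cells, had 129.2, 87.0, 246.2, 366.8 and 163.8 CPM at day 21 and 4.69, 2.21 and 3.02 CPM in the cured libraries. Its log2 fold change was 5.91 (SE 0.59, adjusted p = 0.000437), the groups did not overlap, and untreated tissue at day 21 held 61.4 ± 33.4 CPM (SD, n = 5). Within day 21 the Cxcl9 difference between dual ICI and untreated tissue did not pass (1.71, adjusted p = 0.145). Of the 21 targets 2 were higher there, where 0.574% of all genes were called. Cxcl10, a chemokine of the same receptor, was higher by 5.18 (SE 0.51) and Gbp2, a guanylate-binding protein of cell defense, by 2.71 (SE 0.39, adjusted p = 0.00115). Irf1, a transcription factor that interferon gamma induces, was higher by 1.67 (SE 0.24, adjusted p = 0.00117).

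The 250 bases upstream of the start sites of Cxcl9, Gbp2 and Irf1 are shown, from RefSeq on GRCm38.p6, because interferon gamma reaches its targets through short promoter elements. They lie at chr5:92328080-92328329 (minus strand), chr3:142620413-142620662 (plus strand) and chr11:53769764-53770013 (plus strand). Capitals mark a gamma-activated site (GAS, TTC, any 3 bases, GAA) in Irf1, from 90 bases before the start site, and an interferon-stimulated response element (ISRE, GAAA, any 2 bases, GAAA) read on the opposite strand in Gbp2, from 59 bases before it.
Cxcl9: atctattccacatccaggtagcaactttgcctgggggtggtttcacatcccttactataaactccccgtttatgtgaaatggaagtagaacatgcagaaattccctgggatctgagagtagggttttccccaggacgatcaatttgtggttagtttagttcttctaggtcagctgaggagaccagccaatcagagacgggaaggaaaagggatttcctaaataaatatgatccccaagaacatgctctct
Gbp2: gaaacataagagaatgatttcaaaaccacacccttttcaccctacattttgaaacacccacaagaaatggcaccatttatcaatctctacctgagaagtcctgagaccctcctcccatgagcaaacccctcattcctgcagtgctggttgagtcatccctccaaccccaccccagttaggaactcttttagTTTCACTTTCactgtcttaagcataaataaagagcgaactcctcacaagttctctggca
Irf1: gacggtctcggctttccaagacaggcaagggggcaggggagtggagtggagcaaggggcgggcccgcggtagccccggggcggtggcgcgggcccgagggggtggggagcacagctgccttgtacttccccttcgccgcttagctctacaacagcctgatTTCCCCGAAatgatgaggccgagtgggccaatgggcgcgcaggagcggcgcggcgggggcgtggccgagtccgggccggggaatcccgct
Neither word occurs in this window of Cxcl9, which says only that these letters are not there. Windows of 250 bases before to 50 after the start, both strands, were found for 14 of the 21 targets; 7 (50%) held a GAS word and 11 (78.6%) an ISRE word. Over 27025 genes these shares were 9.55% and 3.99%.

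Of the type I interferon targets, 6 of 16 were higher, beside 24.2% of all genes, and none was lower (12 higher with total counts). Their median was 0.54, and the difference from the interferon gamma list was not tested. Ifit1, an RNA-binding antiviral protein, had 9.99 to 25.2 CPM at day 21 and 8.76 to 12.9 CPM in cured tissue (0.56, SE 0.34, adjusted p = 0.201). Ifit3 had 16.8 to 28.9 and 18.6 to 32.0 CPM (-0.20, SE 0.23, adjusted p = 0.484), and its sign turned with total counts (0.31, adjusted p = 0.394). Of 12 type I targets with a promoter window, 3 (25%) held a GAS word and 7 (58.3%) an ISRE word.

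Antigen presentation genes were called without exception: 14 of 14 for MHC class I (median 1.47) and 10 of 10 for MHC class II (median 1.75). H2-K1, a classical class I heavy chain, had 1158, 1076, 1785, 1369 and 1439 CPM at day 21 and 458.6, 332.9 and 437.9 CPM in cured tissue (1.74, SE 0.24, adjusted p = 0.00100). Nlrc5, the transactivator of class I genes, was higher by 2.19 (SE 0.33). H2-Aa, a class II chain, had 733.9, 685.0, 958.7, 860.1 and 941.8 CPM at day 21 and 234.7, 266.8 and 264.0 CPM in the cured libraries.

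The H2-Aa difference was 1.71 (SE 0.20, adjusted p = 0.000537), with all day 21 values above all cured ones. H2-Aa was also higher under dual ICI than in untreated tissue at day 21 (1.07, adjusted p = 0.0120), whereas cured and untreated tissue at day 35 differed by -0.24 (adjusted p = 0.500). In total 6 of the 10 class II genes were higher in dual ICI than in untreated tissue within day 21. Cd74, the invariant chain that guides class II molecules, was higher by 1.78 (SE 0.22, adjusted p = 0.000608). H2-Q2 (6.95, SE 0.68) and H2-Eb2 (4.39, SE 0.54) were higher too, but near-identical family members can share reads, so their values are uncertain.

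Myeloid genes were higher at day 21 for 16 of 20 macrophage and monocyte genes (median 1.20) and 7 of 9 neutrophil genes (median 3.17). Adgre1, which encodes F4/80, had 79.3, 106.3, 136.5, 132.7 and 179.8 CPM at day 21 and 37.8, 54.4 and 45.4 CPM in cured tissue (1.47, SE 0.26, adjusted p = 0.00299). Cd68, a lysosomal protein of macrophages, was higher by 1.37 (SE 0.24) and Mrc1, the mannose receptor CD206, by 1.15 (SE 0.22, adjusted p = 0.00413). Ccr2, the receptor that brings in monocytes, was higher by 1.59 (SE 0.22).

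Against untreated tissue these genes gave a mixed result. In the difference of differences Adgre1 (0.74, adjusted p = 0.110), Mrc1 (0.37, adjusted p = 0.374) and Ccr2 (0.56, adjusted p = 0.214) did not pass, while Cd68 did (0.99, adjusted p = 0.0458); Ccr2 passed with total counts (1.25, adjusted p = 0.0407). The Cd68 call was lost without any 1 cured library (0.0749 to 0.0976) and without day 21 library 2, 3, 4 or 5 (0.0565 to 0.0843). Timd4, a marker of resident peritoneal macrophages, overlapped between the groups, with 4.01 to 12.3 CPM at day 21 and 5.72 to 7.90 CPM in cured tissue (0.18, SE 0.35, adjusted p = 0.699). The Timd4 difference of differences was -1.64 (adjusted p = 0.00902) and was not called in a fit of all 29 libraries (0.0738). Cured tissue held more Timd4 than untreated tissue of day 35, by 1.86 (adjusted p = 0.000241). Ly6c2, a monocyte surface protein with close paralogs, was higher by 1.56 (SE 0.38, adjusted p = 0.0130), a call lost without cured library 3 (0.0603).

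S100a8 and S100a9 form calprotectin, an abundant neutrophil protein. S100a9 had 2.44, 1.97, 5.52, 13.1 and 4.61 CPM at day 21 and 0.979, 0.148 and 0.732 CPM in cured tissue (3.17, SE 0.78, adjusted p = 0.0135). The call for S100a9 was lost without cured library 3 (0.0556) or 4 (0.0505), and that for S100a8 without library 2 (0.0560) or 3 (0.0701). Csf3r, the receptor for granulocyte colony-stimulating factor, was higher by 2.61 (SE 0.44, adjusted p = 0.00224). Uncured tissue held 12.0 and 16.7 CPM of S100a9 and untreated tissue of day 35 held 13.4 ± 5.04 CPM (SD, n = 5).

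Of 6 NK cell genes 4 were higher, and of 12 dendritic cell genes 7, with none lower in either list. B and plasma cell genes did not move together: 1 of 10 was called (3 with total counts), Cd22, an inhibitory B cell receptor (2.39, SE 0.48, adjusted p = 0.00523). Among mast cell genes 3 of 9 were higher, beside 24.2% of all genes. Cpa3, the mast cell carboxypeptidase (0.44, SE 0.24, adjusted p = 0.165), and Mcpt4, a mast cell protease (-0.12, SE 0.19, adjusted p = 0.622), did not pass; with total counts Cpa3 passed (0.0402) and Mcpt4 turned to 0.36.

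Chemokines were higher for 19 of 22 genes and lower for 1, Cxcl12, with a median of 2.71; with total counts none was lower. Ccl4, a chemokine made by activated T cells and macrophages, had 3.47, 2.23, 4.56, 5.16 and 3.31 CPM at day 21 and 0, 0.0492 and 0.146 CPM in cured tissue (5.73, SE 0.62, adjusted p = 0.000469). It was also higher than in untreated tissue at day 21 (2.47, adjusted p = 0.0119). Cxcl5, a neutrophil attractant, had 15.6, 14.0, 45.5, 134.5 and 42.5 CPM at day 21 and 0.773, 0.0492 and 0.195 CPM in the cured libraries. Ccl20, the ligand of CCR6, had no count in any cured library and was at least 25.8-fold higher at day 21, taking 3 counts over the cured libraries as the floor.

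Inflammatory cytokines were higher for 9 of 16 genes and lower for 1, Tgfb2, which lost its call with total counts. Il1b, interleukin-1 beta, was at 4.99, 3.43, 9.42, 20.8 and 13.6 CPM at day 21 and at 0.155, 0.394 and 0.585 CPM in cured tissue (4.77, SE 0.75, adjusted p = 0.00166). Tnf, a cytokine of macrophages and T cells, was higher by 3.79 (SE 0.48, adjusted p = 0.000719), and Il1rn, the antagonist of the interleukin-1 receptor, by 4.72 (SE 0.77, adjusted p = 0.00197). Tgfb1 was higher by 0.74 (SE 0.19, adjusted p = 0.0172), a call lost without cured library 2, 3 or 4 (0.0530 to 0.0733). Il6 did not pass (1.52, SE 0.60, adjusted p = 0.0654), except with total counts (0.0336) and without day 21 library 1 (0.0430) or 2 (0.0477).

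In the JAK-STAT and IL-6 family list 12 of 28 genes were higher (20 with total counts) and none was lower. Jak1, a kinase shared by interferon and cytokine receptors, had 214.7 to 232.1 CPM at day 21 and 218.4 to 225.8 CPM in cured tissue, a difference of 0.00 (SE 0.13, adjusted p = 0.995) that became 0.49 with total counts (adjusted p = 0.0368). Stat3, the main signal carrier of IL-6, had 191.5 to 249.3 and 172.7 to 205.0 CPM (0.15, SE 0.15, adjusted p = 0.420); with total counts the difference was 0.64 (0.0168). Socs1, an inhibitor that interferon gamma induces, was higher by 1.33 (SE 0.20, adjusted p = 0.00147).

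**Figure D4:**
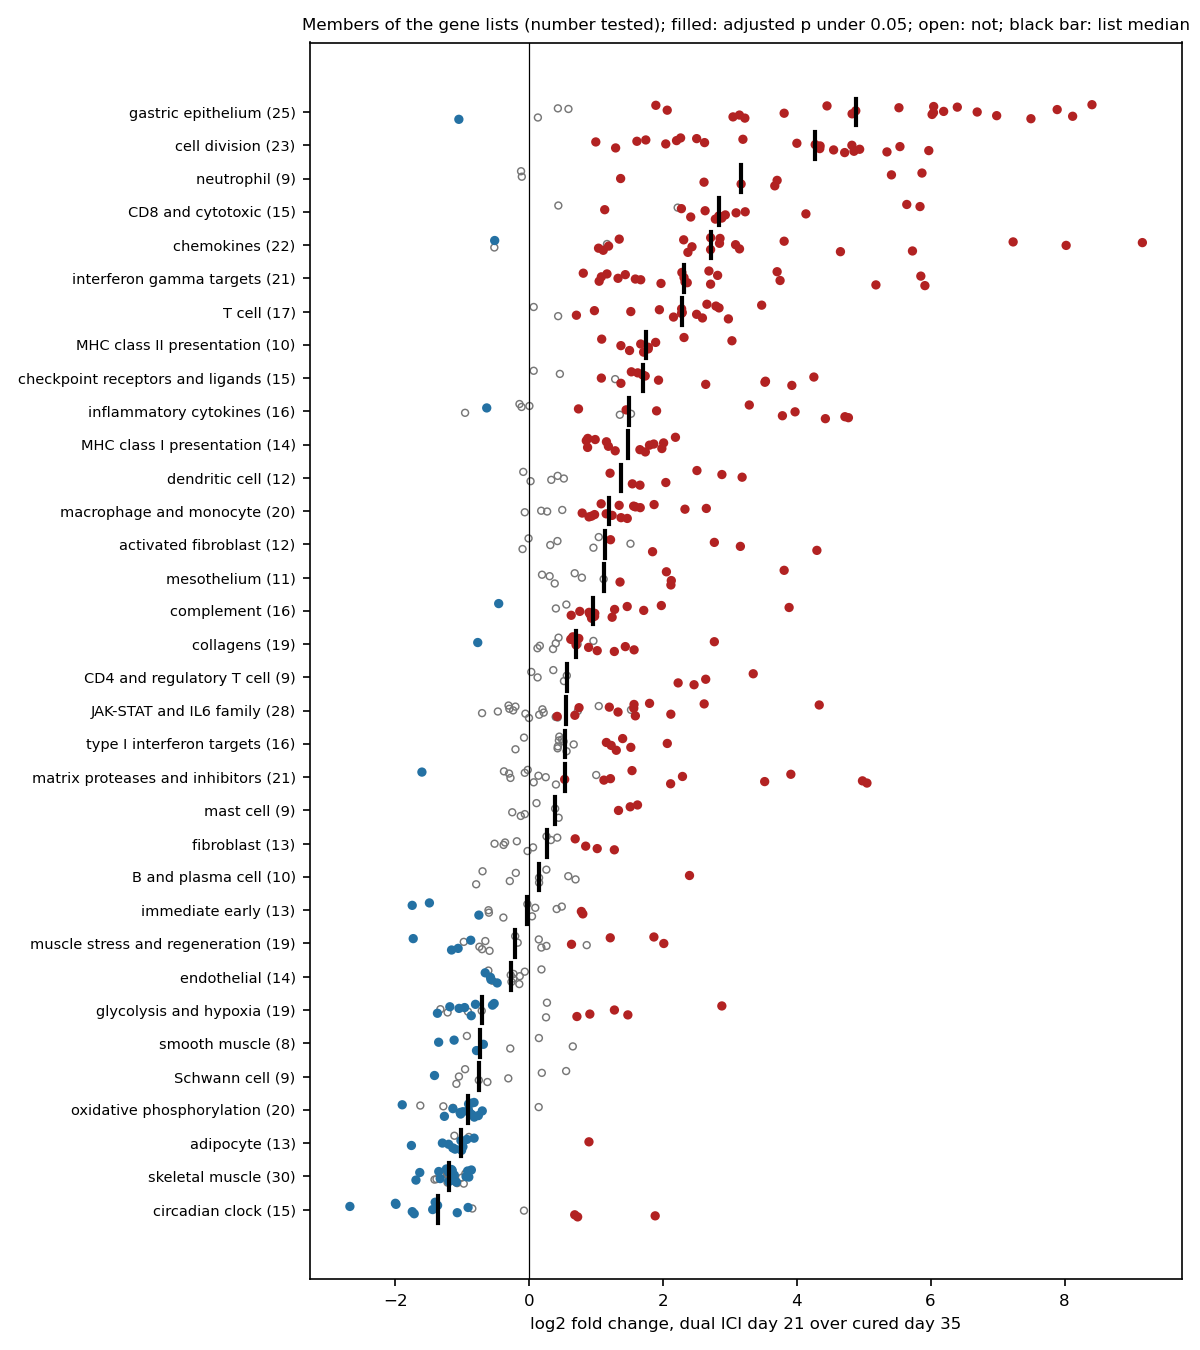
Log2 fold change, day 21 over cured, of the tested members of the 34 gene lists with at least 8 of them, each with its number tested; filled points had an adjusted p under 0.05, open points did not, and a black bar marks the list median. The medians run from 4.88 for gastric epithelium to -1.37 for the circadian clock.

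Stromal genes were mixed. Of 19 collagens 11 were higher and Col7a1 was lower, with a median of 0.70; with total counts none was lower. Col3a1, a fibrillar collagen of loose tissue and scars, had 3404, 4651, 5533, 4352 and 6387 CPM at day 21 and 1630, 1680 and 1605 CPM in cured tissue (1.57, SE 0.28, adjusted p = 0.00294). Untreated tissue differed between the days in the same direction, with 5287 ± 1483 CPM (SD, n = 5) at day 21 and 2200 ± 643.7 CPM (SD, n = 5) at day 35. The difference of differences of Col3a1 was 0.29 (adjusted p = 0.540) and that of Col1a1, the chief bone and skin collagen, 0.32 (adjusted p = 0.444); 3 of 19 collagens were higher and 2 lower in that contrast, with a median of -0.08.

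Tnc, tenascin C of remodeling matrix, passed both in the direct comparison and in the difference of differences. It had 87.2, 94.0, 220.0, 555.0 and 384.4 CPM at day 21 and 9.07, 14.8 and 17.1 CPM in the cured libraries (4.30, SE 0.72, adjusted p = 0.00214), and the difference of differences was 3.86 (adjusted p = 0.00161). Postn, periostin of activated fibroblasts, was higher by 1.84 (SE 0.34, adjusted p = 0.00375). Pdgfra, a receptor on most fibroblasts, overlapped, with 111.0 to 187.9 CPM at day 21 and 132.3 to 168.8 CPM in cured tissue (-0.02, SE 0.19, adjusted p = 0.931; 0.44 with total counts). Of 13 fibroblast genes 4 were higher, beside 24.2% of all genes, and none was lower (7 higher with total counts).

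Matrix proteases and their inhibitors were higher for 10 of 21 genes and lower for 1, Timp4. Mmp3, stromelysin, had 26.3 to 80.8 CPM at day 21 and 11.1 to 16.2 CPM in cured tissue (2.12, SE 0.39, adjusted p = 0.00353). Mmp12, macrophage elastase, was higher by 3.52 (SE 0.90, adjusted p = 0.0157), a call lost without cured library 2 (0.0645) or 4 (0.0632). Complement genes were higher for 13 of 16, with Cd55, a brake on complement, lower, a call lost with total counts.

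Mesothelial genes, which mark the lining of the peritoneum, were higher for 5 of 11. Msln, mesothelin, had 78.9, 63.9, 113.5, 110.3 and 148.0 CPM at day 21 and 39.7, 22.1 and 9.32 CPM in cured tissue (2.12, SE 0.45, adjusted p = 0.00667), and Wt1, a mesothelial transcription factor, was higher by 2.12 (SE 0.44, adjusted p = 0.00613). Upk3b, a mesothelial surface protein, did not pass (0.38, SE 0.48, adjusted p = 0.535). Krt19, higher by 3.81 (SE 0.56), stands in both the mesothelial and the gastric list. Endothelial genes were lower for 4 of 14, with a median of -0.27 that turned to 0.18 with total counts, when none was lower and 1 was higher. Pecam1, a junction protein of vessels, overlapped (-0.15, SE 0.14, adjusted p = 0.427; 0.33 with total counts).

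Lists with more members lower than higher at day 21 included those of muscle, fat and mitochondria. Of 30 skeletal muscle genes 15 were lower (9 with total counts) and none was higher, and all 30 had a fold change below 0 (median -1.20). Mylk4, a kinase of striated muscle, had 288.1, 187.4, 270.5, 158.1 and 195.0 CPM at day 21 and 683.5, 1059 and 846.4 CPM in cured tissue (-1.98, SE 0.24, adjusted p = 0.000592). Ostn, the muscle-secreted peptide musclin, was lower by 2.16 on the log2 scale (SE 0.48, adjusted p = 0.00882). Acta1, skeletal actin, did not pass at -0.98 (SE 0.48, adjusted p = 0.126), although the groups did not overlap, and passed with DESeq2 (0.0244) and without day 21 library 1 (0.0491).

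Oxidative phosphorylation genes were lower for 15 of 20 and higher for none, with a median of -0.91; with total counts 3 were lower and 1 was higher (median -0.49). Ndufs1, a subunit of respiratory complex I, had 310.0, 278.1, 210.7, 169.0 and 158.1 CPM at day 21 and 358.3, 395.4 and 386.7 CPM in cured tissue (-0.76, SE 0.23, adjusted p = 0.0304). The call was lost with total counts (0.118), without any 1 cured library (0.0732 to 0.0939) and without day 21 library 3 (0.0679) or 5 (0.0567). The difference of differences of Ndufs1 was -1.91 (adjusted p = 0.000541). Untreated tissue held 138.4 to 247.9 CPM of Ndufs1 at day 21 and 78.8 to 157.3 CPM at day 35. Cox8b, a cytochrome oxidase subunit of muscle and brown fat, was lower by 1.90 on the log2 scale (SE 0.56, adjusted p = 0.0270), a call lost without any 1 cured library (0.0545 to 0.0890) and without day 21 library 3 (0.0643) or 5 (0.0678).

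Of 19 glycolysis and hypoxia genes, 5 were higher and 8 lower (median -0.71), a balance that turned with total counts to 6 higher and 3 lower (median -0.27). The higher ones included Car9, the carbonic anhydrase of hypoxic tumor cells, with 15.9 to 54.6 CPM at day 21 and 3.46 to 4.64 CPM in cured tissue (2.88, SE 0.41, adjusted p = 0.00107). The 8 lower ones were Hk2, Pfkm, Pkm, Ldha, Ldhb, Vegfa, Bnip3 and Egln3, so Car9 does not stand for the list.

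Adipocyte genes were lower for 10 of 13 and higher for 1 (median -1.02), but with total counts 1 was lower and 1 higher (median -0.59). Plin1, the coat protein of fat droplets, had 54.1, 52.6, 39.4, 14.8 and 37.7 CPM at day 21 and 105.9, 78.7 and 70.6 CPM in cured tissue (-1.11, SE 0.34, adjusted p = 0.0304). This call was lost without any 1 cured library (0.0612 to 0.116), without day 21 library 3 (0.0636) or 5 (0.0696) and with total counts (0.0717). Adipoq, adiponectin, was lower by 1.01 on the log2 scale (SE 0.28, adjusted p = 0.0217), lost without any 1 cured library (0.0524 to 0.0932), without day 21 library 5 (0.0550) and with total counts (0.0592). Lep, leptin, was lower by 1.76 (SE 0.41, adjusted p = 0.0106), lost without cured library 2 (0.0637). With all 29 libraries in 1 fit none of the 3 passed (0.115 to 0.121), nor did Mylk4 (0.0983) or Ndufs1 (0.142).

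The circadian clock was the list with the lowest median, -1.37, with 10 of 15 genes lower and 3 higher. Dbp, an output factor of the clock, had 46.1, 30.7, 19.9, 11.0 and 40.6 CPM at day 21 and 207.0, 188.4 and 170.0 CPM in cured tissue (-2.68, SE 0.37, adjusted p = 0.000999). Hlf, a factor of the same family, was lower by 1.99 (SE 0.24, adjusted p = 0.000592). Arntl (0.73, SE 0.14, adjusted p = 0.00446) and Npas2 (1.88, SE 0.20, adjusted p = 0.000469), from the activating arm of the clock, went the other way.

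Untreated libraries of the 2 days differed in clock genes as well. Npas2 was at 16.9 ± 2.43 CPM (SD, n = 5) in untreated tissue at day 21 and at 4.49 ± 0.669 CPM (SD, n = 5) at day 35, and its difference of differences was -0.04 (adjusted p = 0.896). That of Dbp was -0.07 (adjusted p = 0.935), and both turned sign with total counts. Over the list, 5 of 15 clock genes were lower and none was higher in the difference of differences (median -0.58). Over all 16239 genes of that contrast, 2310 were lower and 3965 higher. The list was not tested against all genes. The hour at which tissue was taken was not given in the sources used here, so clock time cannot be told apart from the groups.

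**Figure D5:**
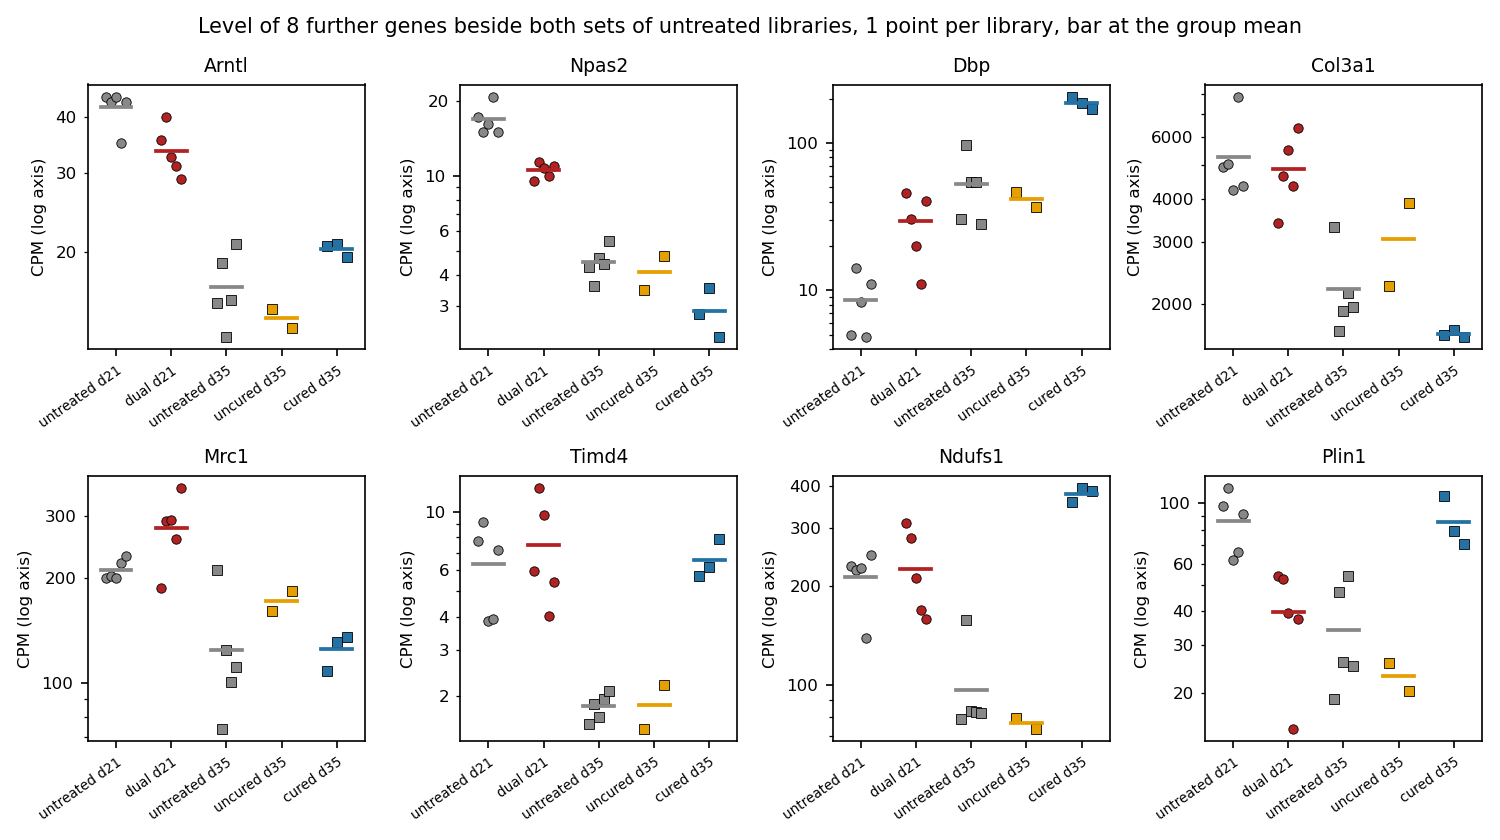
Level of 8 further genes in CPM (log axis) in 5 groups of libraries, with 1 point per library and a bar at the group mean. Npas2 and Col3a1 are higher at day 21 than at day 35 in untreated tissue too, whereas Ndufs1 is highest in the cured libraries (358.3 to 395.4 CPM).

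A few differences rested on 1 library. Cytl1, a cytokine-like protein of cartilage, had 39.3 CPM in cured library 2 against 4.18 and 5.61 CPM in the other cured libraries and 1.07 to 2.97 CPM at day 21 (-2.95, SE 0.67, adjusted p = 0.00989). Without cured library 2 the difference was -1.21 (adjusted p = 0.0657). Acan, the cartilage proteoglycan aggrecan, had 27.3, 0.443 and 0.146 CPM in the cured libraries and 0.0372 to 0.348 CPM at day 21. Its difference of -5.50 (SE 1.36, adjusted p = 0.0137) became -0.57 (adjusted p = 0.624) without library 2. Col9a2, a cartilage collagen, lost its call in the same way (-2.11, adjusted p = 0.0580).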

How the data were processed

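Raw gene counts were deposited by the authors as 1 table of whole-number counts for 29 libraries. The submitters' processing notes name STAR 2.7.0f, featureCounts 1.6.4 and mm10; the study's methods name another counter, and the annotation and the strand setting were not given in the sources used here, so counts of overlapping genes are uncertain. From these counts, edgeR 4.0.16 in R 4.3.3 was used with TMM scaling, filterByExpr by group and the two-sided quasi-likelihood test, with Benjamini-Hochberg adjustment and a threshold of 0.05. No covariate was used. CPM values printed are on library sizes scaled over all 29 libraries and were not used in the tests. On simulated data, the comparison recovered 41% of genes changed 2-fold and 91% of those changed 4-fold, with 5.04% of calls false, over 15390 genes. Only 100 genes changed at each fold size there, up and down alike, with the same dispersion in both groups. In the real comparison 39.0% of genes were called and the groups differed in spread, so these rates may not carry over. DESeq2 1.42.0, other scalings, other filters, a fit of all 29 libraries, a replicate block and leaving out each library were tried as alternatives. Libraries of a group come from separate mice, per the study. No pair of replicates agreed within sampling noise. Shared library numbers do not pair the groups.

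Shares of counts were compared by exact permutation tests. Named genes were the 10 with the greatest fold change in each direction with non-overlapping groups and a mean of at least 10 CPM in the higher group, the first 3 tested members and the most changed member of each list, and genes the study names or stains; some were left out. Genes outside that rule, chosen after their values were seen, were Acan, Ccl20, Ccr2, Cd74, Col9a2, Cxcl5, Irf1, Mmp12, Socs1, Timd4 and Wt1, the markers at 0 counts (Gkn1, Gkn2, Tff1, Muc5ac) and the lone lower members of lists (Cd55, Col7a1, Cxcl12, Tgfb2, Timp4, Trp63). Krt10, Muc6, Lgals4, Tspan8, Fasl, Tbx21 and, apart from Hk2, the lower glycolysis and hypoxia genes were also outside it. The libraries compared and the lists were chosen with earlier results of these data known, so a list's direction is not independent support. Deposited columns left unused: 0. Promoter windows came from RefSeq on GRCm38.p6.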

Additional observations from a re-analysis of the deposited data

Results flagged for a closer look

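In 8 of 100 genes and in none of 10 gene lists, 1 of the 5 day 21 dual ICI libraries lay far from the other 4. Chance gives about 1 in 20 groups for independent, normally distributed values. The genes share the same libraries and CPM values need not be normal, so that rate may not apply here. Library 4 was the high one for Cdh17 (333.5 CPM), Gzmb (4.199 CPM), Ctla4 (4.413 CPM), Btla (8.612 CPM), Il1rn (93.64 CPM), Cxcl5 (134.5 CPM) and Mmp12 (23.54 CPM), and library 2 the low one for Lag3 (5.251 CPM). Library 4 also held the highest gastric epithelium share (0.443%) and the lowest skeletal muscle share (8.59%) of the day 21 libraries, and the part of these shares in those 7 values was not tested.

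The difference between dual ICI day 21 and cured day 35 libraries departed from that between the untreated libraries of the same days in 17 of 25 genes tested. The call was by the difference of differences with an adjusted p under 0.05 (edgeR), where 38.6% of all genes passed. The cured mice were other animals than the day 21 mice and were picked by outcome. The values above 0 were Hnf4a (9.05), Cxcl9 (5.292), Pdcd1 (4.939), Mki67 (4.856), S100a9 (4.678), Tnf (4.485), Tnc (3.865), Foxp3 (3.054), Cd8a (2.979), Gbp2 (2.246), H2-Aa (1.305) and Cd68 (0.9862), all on the log2 scale. A value above 0 can come from either day. Within day 21, dual ICI over untreated was called for Cd8a (2.31) and H2-Aa (1.07). It was not called for Hnf4a (-0.11), Foxp3 (0.19), S100a9 (0.27) or Tnc (-0.05). For these 4, cured over untreated tissue at day 35 was -9.17, -2.87, -4.42 and -3.92. The differences of differences below 0 were Ndufs1 (-1.907), Timd4 (-1.639), Adipoq (-1.539), Cd28 (-1.48) and Arntl (-0.6174). The calls for Adipoq and Arntl were lost without cured library 2 (0.0778) and 3 (0.0552), and that for Cd68 without each of 7 libraries (0.0565 to 0.0976). With total counts Arntl (-0.04, adjusted p = 0.872) and Cd28 (0.0728) lost theirs, and in a fit of all 29 libraries Timd4 (0.0738), Adipoq (0.0820), Arntl (0.0906) and Cd28 (0.0814) did.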

How the results depend on the processing

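The number of called genes was 6069 and ranged from 2600 to 7526 when 1 library was left out, 318 to 507 of them lower at day 21 without a cured library against 2296 with all. Under the other alternatives (DESeq2, 3 scalings, 2 filters, all 29 libraries, leaving out the muscle and gastric lists) it was 4954 to 7390. Shared numbers did not pair the libraries (correlations of deviations 0.03, 0.06 and -0.05 for numbers 2, 3 and 4); with the replicate block the count was 5202, and the calls for Gkn3 (0.0904), Cdh5 (0.0786) and Acan (0.245) were lost. No replicate block was run for the difference of differences (6275 calls, 4653 to 8205 over all alternatives). With total counts, signs turned for Ifit3 (0.3074), Mcpt4 (0.3608), Jak1 (0.4869), Pdgfra (0.4419), Pecam1 (0.3285) and, as differences of differences, Npas2 (0.5556) and Dbp (0.3986); that scaling moves all genes upward by its construction. Jak1 also turned with upper-quartile scaling (0.02002), no filter (0.0002473), at least 10 counts in every library (0.05411) and the replicate block (0.0352), Pdgfra with that count minimum (0.02956) and the replicate block (0.04225), and the Npas2 difference of differences with that count minimum (0.022). Leaving out 1 library gave ranges across 0 for Cd28 (-0.07483 to 0.1731), Timd4 (-0.08434 to 0.341), Jak1 (-0.02927 to 0.01537), Pdgfra (-0.1494 to 0.09182), Upk3b (-0.02143 to 0.7797) and the differences of differences of Npas2 (-0.1739 to 0.1567) and Dbp (-0.4215 to 0.1398). The ratio of endothelial shares, 1.10, became 0.7989 on scaled library sizes. Beyond the scalings, the cause of these changes was not tested. Leaving out untreated day 35 library 2 was added after seeing the data. A gene at 0 counts in 3 cured libraries could still be expressed below 3 counts.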

Other observations

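A few markers of other tissues were seen that belong to no list described above. Of 7 tested squamous epithelium genes 4 were higher at day 21 (Krt14, Krt15, Dsg3 and Sprr1a) and 1, Trp63, was lower (none with total counts). Krt14, a basal keratin, had 10.2 to 47.2 CPM at day 21 and 0.683 to 5.82 CPM in the cured libraries. The keratin genes Krt5 and Krt10 were not called, so Krt14 does not stand for every member. Krt5 overlapped between the groups (0.67, SE 0.97, adjusted p = 0.597). Cela1, an elastase of the exocrine pancreas, had 16.3 to 37.2 CPM at day 21 and 0.976 to 2.32 CPM in cured tissue. It was the only 1 of 8 exocrine pancreas genes with enough counts to be tested. Immediate early genes, which tissue handling can raise, were mixed, with 2 of 13 higher and 3 lower (median -0.03; 5 higher, 2 lower and 0.45 with total counts). Muscle stress and regeneration genes were mixed as well, with 4 of 19 higher and 4 lower (median -0.21; 5, 2 and 0.21 with total counts).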
